A study of Mus musculus with 4 samples.

Results

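The genes of mitosis and the spindle were examined in mouse embryonic stem (ES) cells that lack SOCS3. They are the mitotic cyclins and kinases, the checkpoint and kinetochore genes, the kinesins, and the genes of cytokinesis and chromosome condensation. A set of 51 genes was given by name, and a gene was represented by the probe set with its single symbol that had the highest mean log2 value over the 4 arrays. Of the 51 genes 50 had such a probe set, out of 18193 genes with a single symbol on the array. The remaining gene, the mitotic cyclin Ccnb1, has no probe set under its single symbol in the annotation used and was not analysed here. The groups were wildtype ES cells (2 arrays) and SOCS3 null ES cells (2 arrays), with total RNA as the material in both. The labels name leukemia inhibitory factor, SHP2 and ERK1/2 as topics of the study. They give no strain, clone, passage, allele or culture condition for either group. Whether the 2 arrays of a genotype are separate cultures is not said either. The p-values below therefore rest on array-to-array spread alone, and that spread may be technical.

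Mitotic genes are a periodic programme: their transcripts are low after division, build up through DNA replication and peak as cells enter mitosis. A cyclin-dependent kinase starts mitosis, the spindle attaches to the kinetochores, the checkpoint holds the anaphase-promoting complex (APC/C) until every chromosome is attached, and separase then frees the sister chromatids. Mouse ES cells divide fast with short gap phases. Many mitotic promoters carry the cell cycle homology region (CHR), an element bound by the DREAM and MuvB complexes, together with CCAAT boxes bound by the factor NF-Y.

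The promoters of mitotic genes that were lower in SOCS3 null cells are shown first, with those of Ccnb1, Cdk1 and Plk1 as members whose promoters are known for cell cycle control. Each line gives the 120 bases before the start that the RefSeq promoter table uses (build GRCm38.p6), 5′ to 3′ on the strand of the gene. That start is not always the outer boundary of the gene: it lies 375 bases inside it in Ect2, whose printed bases are thus within the annotated gene, 38 inside it in Ttk and 9 in Bub1b. Capitals mark matches to the CHR (TTTGAA or TTCGAA, on either strand) and to the CCAAT box (CCAAT, on either strand).
Ccnb1 (chr13:100786487-100786606, minus strand): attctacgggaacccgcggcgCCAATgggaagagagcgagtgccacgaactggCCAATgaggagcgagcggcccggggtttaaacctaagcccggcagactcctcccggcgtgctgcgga
Cdk1 (chr10:69352913-69353032, minus strand): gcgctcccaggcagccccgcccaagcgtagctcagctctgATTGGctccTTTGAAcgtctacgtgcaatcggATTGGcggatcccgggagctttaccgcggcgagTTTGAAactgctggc
Plk1 (chr7:122159315-122159434, plus strand): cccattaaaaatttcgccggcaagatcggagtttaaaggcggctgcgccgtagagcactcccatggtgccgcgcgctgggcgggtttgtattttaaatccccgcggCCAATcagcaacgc
Ttk (chr9:83834569-83834688, plus strand): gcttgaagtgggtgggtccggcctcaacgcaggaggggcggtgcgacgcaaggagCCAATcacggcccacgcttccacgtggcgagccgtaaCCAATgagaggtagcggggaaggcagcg
Bub1 (chr2:127831860-127831979, minus strand): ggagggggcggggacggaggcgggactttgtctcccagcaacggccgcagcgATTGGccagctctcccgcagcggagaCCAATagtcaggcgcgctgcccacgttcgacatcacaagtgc
Bub1b (chr2:118598091-118598210, plus strand): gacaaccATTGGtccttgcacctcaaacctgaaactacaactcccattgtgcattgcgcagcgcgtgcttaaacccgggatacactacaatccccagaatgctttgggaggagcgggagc
Mad2l1 (chr6:66535101-66535220, plus strand): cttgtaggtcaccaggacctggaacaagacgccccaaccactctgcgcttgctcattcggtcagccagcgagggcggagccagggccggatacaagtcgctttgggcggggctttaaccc
Ndc80 (chr17:71526858-71526977, minus strand): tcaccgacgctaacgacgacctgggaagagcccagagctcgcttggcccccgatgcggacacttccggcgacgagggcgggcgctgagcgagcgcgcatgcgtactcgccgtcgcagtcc
Kif11 (chr19:37376262-37376381, plus strand): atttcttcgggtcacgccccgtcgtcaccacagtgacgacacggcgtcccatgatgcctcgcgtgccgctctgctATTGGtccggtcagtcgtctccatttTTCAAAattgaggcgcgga
Nusap1 (chr2:119618178-119618297, plus strand): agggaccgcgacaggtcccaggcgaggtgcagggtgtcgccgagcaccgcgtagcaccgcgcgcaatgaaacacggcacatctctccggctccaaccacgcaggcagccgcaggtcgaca
Ect2 (chr3:27153879-27153998, minus strand): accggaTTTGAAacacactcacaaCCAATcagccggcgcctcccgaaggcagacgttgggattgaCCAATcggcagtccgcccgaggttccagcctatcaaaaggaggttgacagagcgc

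In Plk1 and in 5 of the genes called lower, a CHR match lay after that start. These short windows show the matches in capitals with up to 10 bases on each side.
Plk1 (chr7:122159455-122159480, plus strand): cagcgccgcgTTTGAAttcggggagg
Ttk (chr9:83834689-83834711, plus strand): gggaaatTTCAAAcgtgtttccg
Bub1 (chr2:127831830-127831855, minus strand): gcgcggggaaTTCGAAtcgccggcgg
Bub1b (chr2:118598241-118598260, plus strand): agacgttaaaTTTGAAactt
Ndc80 (chr17:71526813-71526838, minus strand): aactttaaaaTTCAAAccgccttggg
Ect2 (chr3:27153829-27153849, minus strand): actggattttTTTGAAtcgga

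Of the 51 genes 42 had a promoter entry in the RefSeq table. Ccna2, Cdc25c, Aurkb, Incenp, Spc24, Kif20a, Tpx2, Smc4 and Foxm1 had none. In a window of 300 bases, 250 before and 50 after the start, 32 of 42 (76.2%) held a CHR match, against 18.2% of 17492 protein-coding genes. CCAAT matches stood in 32 of 42 (76.2%), against 39.2% of all, and at least 2 of them stood in 21 of 42 (50%), against 13.5%. Both kinds of match occurred in 29 of 42 (69.0%), against 7.47%. The position of the CHR match was narrow: in 29 of 42 genes (69.0%) it began within 50 bases of the start, as it did in 4.42% of all genes. Cdk1 has a match at position -15 counted from the start, Kif11 at -19, Ube2c at -29 and Cdc20 at -18, while those of Ttk, Bub1 and Ndc80 begin at 8, 15 and 30 after it. Neither kind of match was found in the windows of 7 genes, namely Birc5, Mad2l1, Pttg1, Nuf2, Kif18a, Nusap1 and Ncaph. These shares are a description of letters in the windows: a match is not a binding site, and no match says only that these letters are not in the window. The start used was the outer boundary of the gene in 21 of the 42, at most 71 bases from it in 15, and farther than the window is long in 6: Kif2c (3852 bases), Pttg1 (1482), Ncapd2 (514), Cdc25b (512), Ect2 (375) and Aurka (316). A CHR match and a CCAAT match shared bases in 1 member. Of the genes called lower 6 of 8 (75%) held a CHR match, and of the others 26 of 34 (76.5%) did, and these shares lie close to each other. The 34 include Ccnb1, which held no CHR match and was not tested on the arrays.

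**Figure D1:**
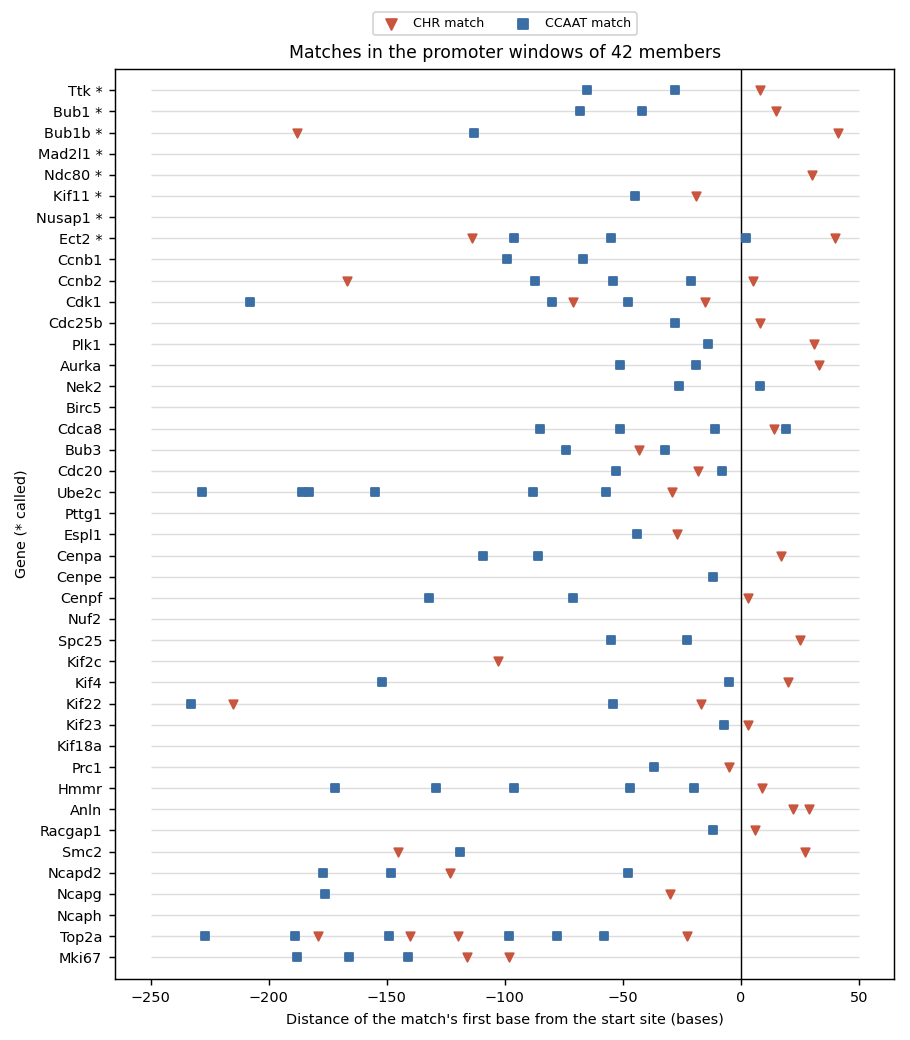
Positions of CHR matches (red triangles) and CCAAT matches (blue squares) in the promoter windows of 42 genes, by distance in bases from the start in the RefSeq promoter table (vertical line). Asterisks mark the 8 genes called lower in SOCS3 null cells. CHR matches gather around the start, with 29 of 42 genes holding one within 50 bases of it. CCAAT matches lie mostly before it, but the window itself holds 250 bases before the start and only 50 after it.

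The comparison of SOCS3 null with wildtype arrays asks which transcripts differ between the groups. SOCS3 is an inhibitor of cytokine signalling. The targeted transcript was checked first. On the probe set that represents it, Socs3 was at 3024 and 1884 on the wildtype arrays and at 19.3 and 12.9 on the SOCS3 null arrays, so its level follows the labels. The ES cell markers Pou5f1, Nanog, Sox2 and Zfp42 were bright in every sample, with a summed intensity of 29894 and 31071 in wildtype and of 21538 and 20023 in SOCS3 null cells. Sox2 fell (-1.01), and 3 of the 4 had an unadjusted p under 0.05: Zfp42 differed by -1.70 and Nanog by -0.42 without passing the adjusted threshold. The 8 markers of endoderm (Gata4, Gata6, Sox17, Dab2, Pdgfra, Lama1, Col4a1 and Cubn) all rose, with 4 of their 8 wildtype means below the median of the arrays and with sums of 722 and 757 in wildtype and of 32504 and 33208 in SOCS3 null cells. The 10 markers of fibroblasts and feeder cells summed to 1420 and 2308 in wildtype and to 2741 and 1699 in SOCS3 null cells, and 0 of the 9 tested were called by limma (1 of 9 at an unadjusted p under 0.05). The part of these other cell types in the changes below was not tested.

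Of the 50 mitosis and spindle genes 9 fell in SOCS3 null cells, 0 rose and 41 did not pass the test. Those that fell were the checkpoint genes Mad2l1, Bub1 and Bub1b and the checkpoint kinase Ttk, the kinetochore genes Ndc80 and Spc24, the spindle motor Kif11, the spindle protein Nusap1, and Ect2, an activator of cytokinesis. Their log2 changes ran from -0.88 for Ect2 to -0.37 for Bub1b. A gene was called at an adjusted p under 0.05 in limma, with Benjamini-Hochberg adjustment over 12732 genes, and changes are differences in mean log2(intensity + 16), negative where SOCS3 null cells were lower. Genes called in either direction made up 22.7% of all genes tested, and 18% of the mitotic genes, so being called was not more common here. The direction was uneven: 18% of the mitotic genes were called lower, against 9.55% of all genes, and 0 were called higher, against 13.1%. Among the 7112 genes tested whose wildtype intensity lay within the range of the mitotic genes (84.5 to 5185), 13.9% were called lower and 13.6% higher. At an unadjusted p under 0.05 the mitotic genes numbered 15 (30%), all lower, against 38.5% of all genes in either direction. With any 1 of the 4 arrays left out limma called 0 genes, mitotic or other, and the count at an unadjusted p under 0.05 was 2928 to 4733 genes. When dim probe sets were kept in, 5 mitotic genes were called, all lower. In bulk RNA, fewer cells in mitosis and less of a transcript per cell cannot be told apart.

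The changes were small. The median over the 50 genes was -0.20, against -0.0050 over all genes tested, and the quartiles were -0.34 and 0.01, against -0.24 and 0.30 over all genes. The median was -0.10 without wildtype replicate 1 and between -0.18 and -0.14 without any other array. On the probe sets that represent the genes, no mitotic gene changed by 1 or more on the log2 scale, whereas 1183 genes (9.29%) were called with a change of that size. The largest absolute change, that of Ect2, was exceeded by 13.2% of all genes. Of the 50 genes 36 (72%) had a negative change, against 51.03% of all genes and 54.0% of those in the same range of intensity. A lean to 1 side also occurred within a genotype. Wildtype replicate 2 was above wildtype replicate 1 in 14 of the 50 genes, with a median difference of -0.053. Over all 12732 genes it was above in 5631, with a median of -0.0059. SOCS3 null replicate 2 was above replicate 1 in 27 of the 50 genes, with a median of 0.014. In 25 of the 50 genes (50%) both SOCS3 null arrays lay below both wildtype arrays, against 33.6% of all genes. In 5 genes (Ccnb2, Kif4, Tpx2, Prc1 and Anln) both lay above, against 32.3%. The groups thus did not overlap in 30 of the 50 genes (60%), against 65.8% of all genes.

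**Figure D2:**
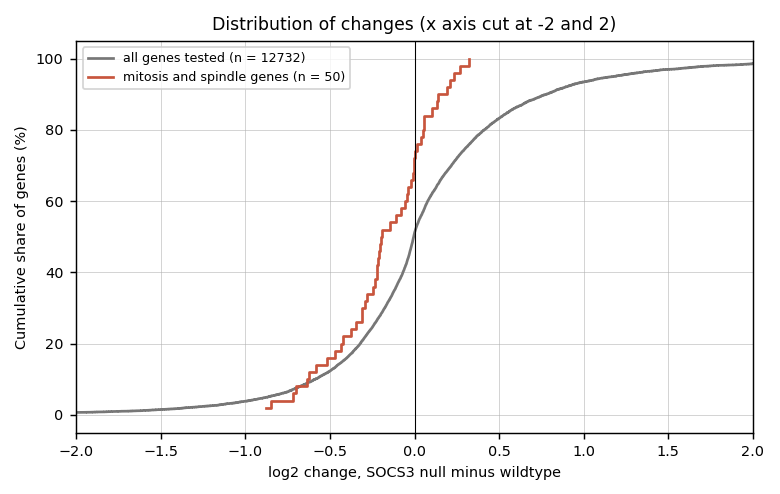
Cumulative share of genes (%) by log2 change between SOCS3 null and wildtype, for the 50 mitosis and spindle genes (red) and all 12732 genes tested (grey). The red curve lies to the left of the grey one above its lowest part and ends at 0.32, whereas the grey curve extends past both ends of the axis.

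Entry into mitosis depends on cyclins A and B and on Cdk1, the kinase they activate. None of the 5 transcripts tested was called by limma, and none had an unadjusted p under 0.05. Over all genes tested these shares were 22.7% and 38.5%, and the role holds few genes. Cdk1 was at 3260 and 3165 on the wildtype arrays and at 3165 and 2918 on the SOCS3 null arrays, and the groups overlap at a shared value. Its change was -0.08 (SE 0.09, 95% interval -0.32 to 0.16). Ccna2, which acts from DNA replication into early mitosis, was at 1985 and 2039 in wildtype and at 2024 and 1944 in SOCS3 null cells, a change of -0.02 (95% interval -0.24 to 0.20). Ccnb2, a B-type cyclin, was at 2492 and 2481 against 2761 and 2702, with both SOCS3 null arrays higher, but the difference of 0.13 did not pass (limma adjusted p = 0.283). The interval of Ccnb2 ran from -0.08 to 0.35. Cdc25b and Cdc25c, phosphatases that activate Cdk1, changed by -0.05 and 0.14. Cdc25c had 393 on 1 SOCS3 null array and 261 on the other, a wider gap than that between genotypes.

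Among the mitotic kinases only Ttk, which recruits checkpoint proteins to unattached kinetochores, was called of the 5 tested (20%, against 22.7% of all genes). Ttk was at 872 and 760 on the wildtype arrays and at 520 and 458 on the SOCS3 null arrays. Both SOCS3 null values lay well below both wildtype values, and the change was -0.72 (SE 0.12, limma adjusted p = 0.0288). As the mean of its probe sets it changed by -0.48. Plk1, a kinase of spindle assembly and mitotic entry, was at 1197 and 1287 against 1039 and 958, so the groups did not overlap. Its change of -0.31 did not pass (limma adjusted p = 0.0938). Aurka, the spindle pole kinase, was at 1736 and 1766 against 1678 and 1736, and Aurkb, the kinase of the chromosomal passenger complex, at 523 and 518 against 624 and 471. Neither these nor Nek2, a kinase of centrosome separation (-0.11), differed beyond the spread between arrays. Of the other subunits of the passenger complex, Birc5 was lower on both SOCS3 null arrays, at 2767 and 2699 against 3653 and 3310 (-0.35, limma adjusted p = 0.0717). Incenp and Cdca8 overlapped between groups, with changes of -0.28 and -0.0033.

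Among the roles the spindle checkpoint had the largest share of called genes, 3 of 4 (75%), all lower. Over all genes tested 22.7% were called in either direction and 9.55% lower. The roles hold few genes, and the checkpoint kinase Ttk was counted with the mitotic kinases, so this order depends on the grouping. Mad2l1 encodes the protein that, with the Bub1b product, holds back the APC/C activator Cdc20. Mad2l1 was at 3443 and 3445 on the wildtype arrays and at 2322 and 2136 on the SOCS3 null arrays, a fall of the mean from 3444 ± 1.31 to 2229 ± 132 (SD, n = 2). Its change was -0.62 (SE 0.09, limma adjusted p = 0.0201), or 1.54 times more in wildtype. Bub1, a kinase of the kinetochore, was at 1517 and 1499 in wildtype and at 1149 and 1077 in SOCS3 null cells (-0.43, SE 0.08, limma adjusted p = 0.0368). Bub1b was at 1526 and 1461 against 1149 and 1149 (-0.37, SE 0.08, limma adjusted p = 0.0451). In none of the 3 did the groups overlap, which was also so in 65.8% of all genes tested. Bub3, which binds the products of both Bub genes, was at 3092 and 2821 against 2965 and 2948, a change of 0.0016 (95% interval -0.25 to 0.25). As the mean of their probe sets, Bub1 and Bub1b changed by -0.14 and -0.13 and were no longer called.

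Of the 4 genes that act at anaphase 0 were called by limma, and 0 had an unadjusted p under 0.05. Over all genes tested these shares were 22.7% and 38.5%, and the role holds few genes. Cdc20 was at 5161 and 5009 in wildtype and at 4134 and 4777 in SOCS3 null cells (-0.19, limma adjusted p = 0.275). Ube2c, the ubiquitin-conjugating enzyme of the APC/C, was at 5006 and 5285 against 4779 and 4131 (-0.21). In both genes the groups did not overlap, as in 65.8% of all genes. The gap between the SOCS3 null arrays was wider than that between the nearest arrays of different genotype. Pttg1 encodes securin, the inhibitor of separase. It was at 5281 and 5090 in wildtype and at 4721 and 8911 in SOCS3 null cells, so its change of 0.32 rested on SOCS3 null replicate 2 and was -0.13 without it. Espl1, separase itself, had the value 659 on 3 arrays and 650 on SOCS3 null replicate 1.

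At the kinetochore 2 of 7 genes fell and 0 rose. Calls thus made up 28.6%, against 22.7% of all genes tested in either direction and 9.55% lower. A negative change was seen in 6 of 7 (85.7%), against 51.03% of all genes. Ndc80, Nuf2, Spc24 and Spc25 encode the subunits of the complex that holds microtubules, and 2 of these 4 were called. Spc24 (chr9:21755434-21760446, GRCm38.p6) was at 633 and 633 on the wildtype arrays and at 328 and 360 on the SOCS3 null arrays (-0.85, SE 0.09, limma adjusted p = 0.0116), or 1.84 times more in wildtype. Ndc80 was at 399 and 356 against 248 and 268 (-0.52, SE 0.10, limma adjusted p = 0.0384). Nuf2, the partner of Ndc80, was at 491 and 500 against 325 and 383 (-0.47, limma adjusted p = 0.0563), and so missed the threshold with groups that did not overlap. Spc25, the partner of Spc24, was at 989 and 929 against 894 and 1101 (0.05, 95% interval -0.33 to 0.42), with no separation. The difference in change between Spc24 and Spc25 was not tested. Cenpa, the centromeric histone, and Cenpf, a protein of the outer kinetochore, were lower on both SOCS3 null arrays without passing (-0.29 and -0.42). Cenpe, a kinetochore motor, was at 963 and 775 in wildtype and at 758 and 978 in SOCS3 null cells, with no order between the groups.

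**Figure D3:**
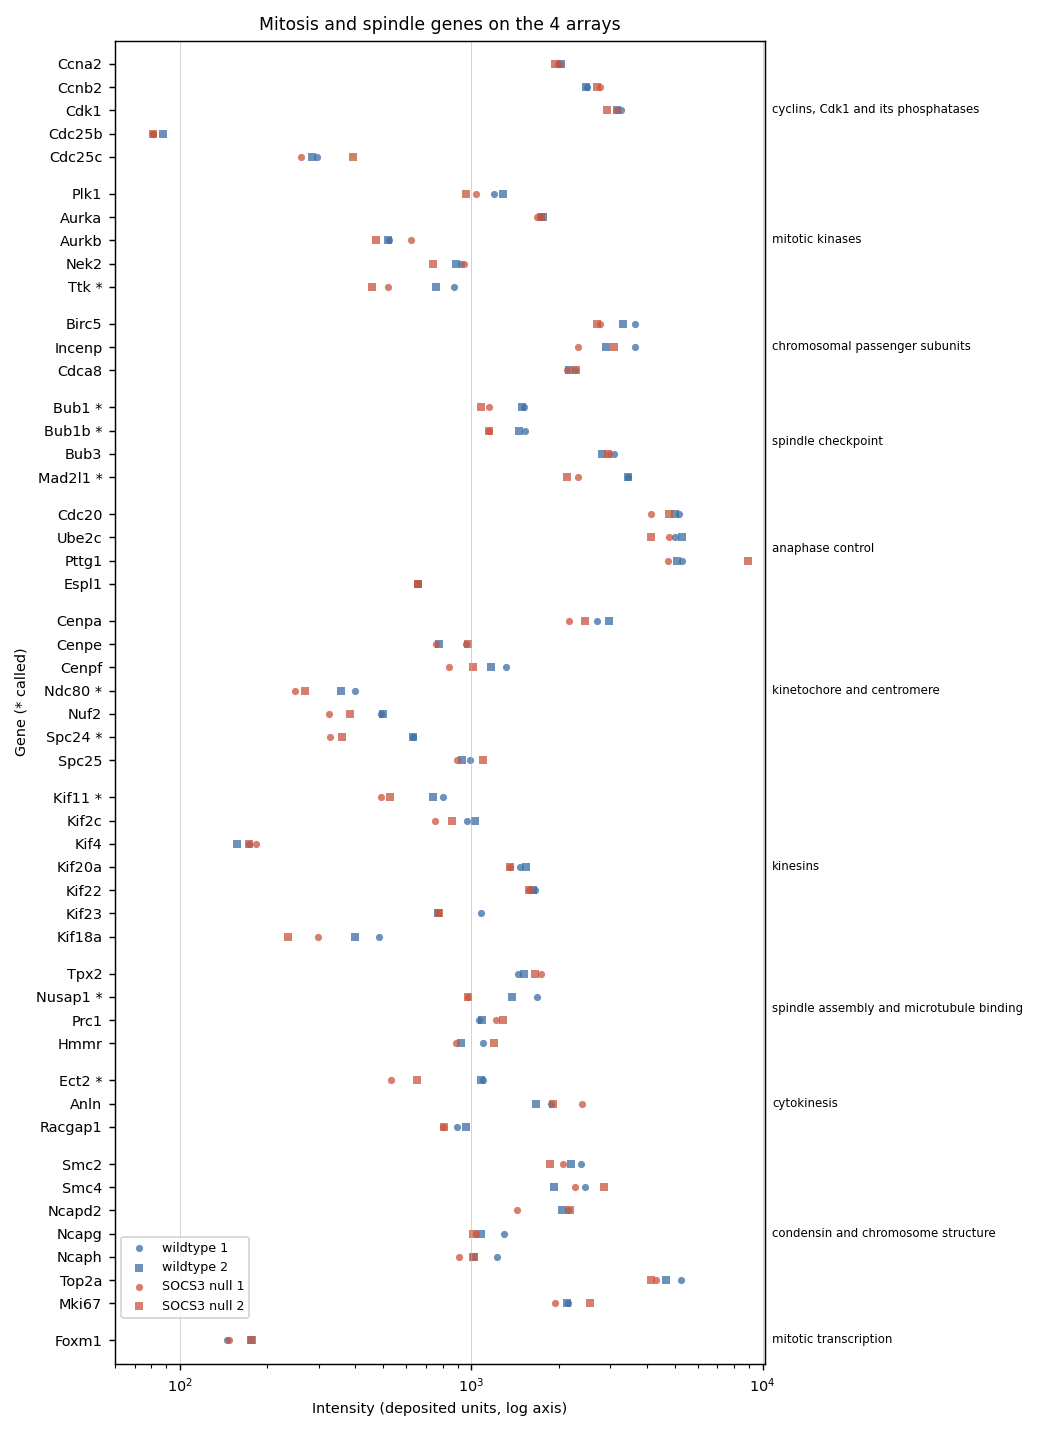
Intensity of the 50 genes on each of the 4 arrays (log axis, deposited units), in blocks by role; blue symbols are wildtype arrays and red ones SOCS3 null arrays, circles are replicate 1 and squares replicate 2, and asterisks mark called genes. The red symbols of Ttk, Mad2l1, Spc24, Ndc80, Kif11 and Ect2 lie left of the blue ones, whereas those of Cdk1, Ccna2, Aurka and Bub3 lie close to them, and Pttg1 has 1 SOCS3 null array at 8911. Intensities of different genes come from different probes and are not to be compared.

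Of the 7 kinesins only Kif11, the motor that pushes spindle poles apart, was called (14.3%, against 22.7% of all genes). It was at 801 and 741 in wildtype and at 491 and 527 in SOCS3 null cells (-0.58, SE 0.09, limma adjusted p = 0.0256), or 1.51 times more in wildtype. Kif18a, which damps chromosome movements on the spindle, had a change of similar size, at 484 and 400 against 298 and 235 (-0.70, SE 0.17). The gap between its arrays was wider, and it missed the threshold (limma adjusted p = 0.058). Kif2c, a microtubule depolymerase, had a change of -0.31 (limma adjusted p = 0.12) with both SOCS3 null arrays lower. Kif20a and Kif22 were slightly lower on both SOCS3 null arrays (-0.15 and -0.06), and Kif4, a chromokinesin, slightly higher (0.10). Kif23, the motor of the central spindle, was at 1079 and 770 in wildtype and at 770 and 777 in SOCS3 null cells, so only wildtype replicate 1 stood apart.

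Of the 4 genes for proteins that organise spindle microtubules only Nusap1 was called (25%, against 22.7% of all genes). It was at 1685 and 1386 in wildtype and at 978 and 976 in SOCS3 null cells (-0.64, SE 0.12, limma adjusted p = 0.0392). As the mean of its probe sets it changed by -0.35 and was no longer called. Tpx2, the activator of Aurka, was at 1452 and 1515 against 1737 and 1658, and Prc1, which bundles the central spindle, at 1065 and 1088 against 1216 and 1282. In both the SOCS3 null arrays were the higher ones, and the changes of 0.19 and 0.21 did not pass (limma adjusted p = 0.179 and 0.147). Hmmr, a spindle pole protein, overlapped between the groups (0.04). In cytokinesis, Ect2 was at 1095 and 1085 in wildtype and at 530 and 650 in SOCS3 null cells, from 1090 ± 7.07 to 590 ± 84.9 (SD, n = 2). Its change of -0.88 (SE 0.13, limma adjusted p = 0.0222) was the largest of the 50 genes, 1.85 times more in wildtype. Racgap1, which recruits Ect2 to the central spindle, differed by -0.20 (95% interval -0.44 to 0.04). Anln, a scaffold of the contractile ring, lay the other way, at 1883 and 1672 in wildtype and at 2404 and 1905 in SOCS3 null cells (0.27, limma adjusted p = 0.291).

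Of the 7 chromosome condensation genes 0 were called by limma, and 0 had an unadjusted p under 0.05. Over all genes tested these shares were 22.7% and 38.5%, and the role holds few genes. The condensin subunits Smc2, Ncapg and Ncaph differed by -0.22, -0.20 and -0.22, with both SOCS3 null arrays below both wildtype arrays in each. That order was seen in 33.6% of all genes tested. Without wildtype replicate 1 the differences were -0.17, -0.07 and -0.09. Smc4, the partner of Smc2, was at 2455 and 1923 in wildtype and at 2281 and 2864 in SOCS3 null cells (0.23), and Ncapd2 had 1438 and 2181 on the SOCS3 null arrays around wildtype values of 2158 and 2056. Top2a, the topoisomerase that untangles chromatids, was at 5238 and 4652 against 4307 and 4143 (-0.22, limma adjusted p = 0.191), and as the mean of its probe sets it changed by -0.47 and was called. Mki67, the proliferation marker Ki-67, was at 2145 and 2136 in wildtype and at 1936 and 2555 in SOCS3 null cells. Its change was 0.05 (95% interval -0.40 to 0.51), with no separation. Foxm1, a transcription factor of mitotic genes, was at 145 and 175 against 147 and 177 (0.01, 95% interval -0.39 to 0.42).

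**Figure D4:**
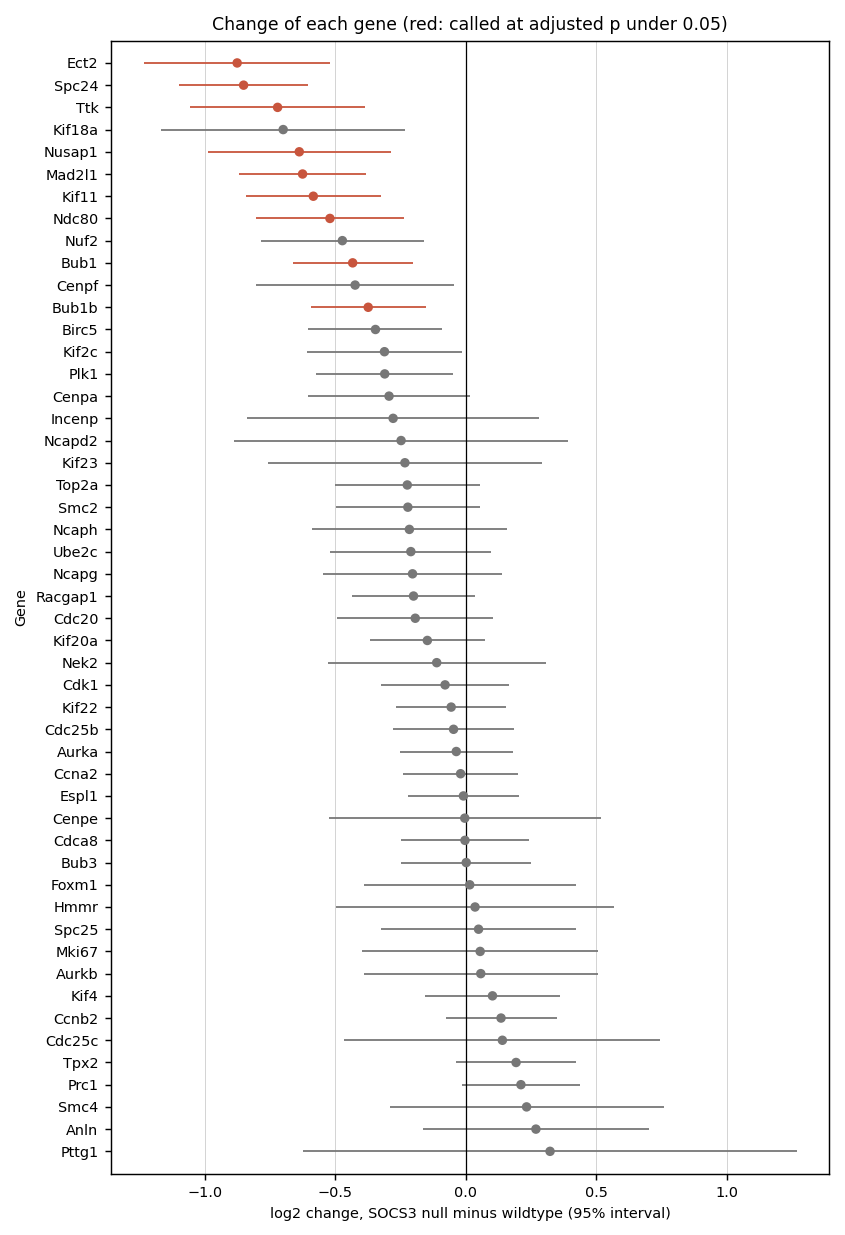
log2 change (SOCS3 null minus wildtype) of each of the 50 genes with its 95% interval from limma, ordered by size; red marks the 9 genes called at an adjusted p under 0.05. All red points lie between -0.88 and -0.37, and the positive side holds only intervals that cross 0.

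Several genes have more than 1 probe set, and these did not always give the same answer. The 50 genes had 117 probe sets, of which 108 were tested; 16 were called lower and 1 higher by limma with adjustment over all 27022 probe sets tested, or 15.7% against 15.9% of all. Called lower were 14.8% of the 108, against 7.3% of all. In 24 of the 34 genes that had several tested, the changes shared a sign. All 3 probe sets of Kif11 fell, by -0.58, -0.62 and -1.17. The probe set that represents Cdc20 was not called (-0.19), and another fell from 5451 ± 72.9 to 3846 ± 310 (SD, n = 2; -0.50, limma adjusted p = 0.0445). Kif2c, Smc2 and Top2a each had another probe set that fell, with changes of -0.76, -0.63 and -0.72. Another probe set of Tpx2 rose from 244 ± 5.73 to 321 ± 2.82 (SD, n = 2; 0.37, limma adjusted p = 0.0464), and it was the only one of the 108 called higher. With these, 14 of the 50 genes had at least 1 called probe set. Such a count grows with the number of probe sets tested per gene. The same share over all genes was not computed, so the count cannot be set against it. The genes with a called probe set besides the one that represents them were chosen after their values were seen.

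**Figure D5:**
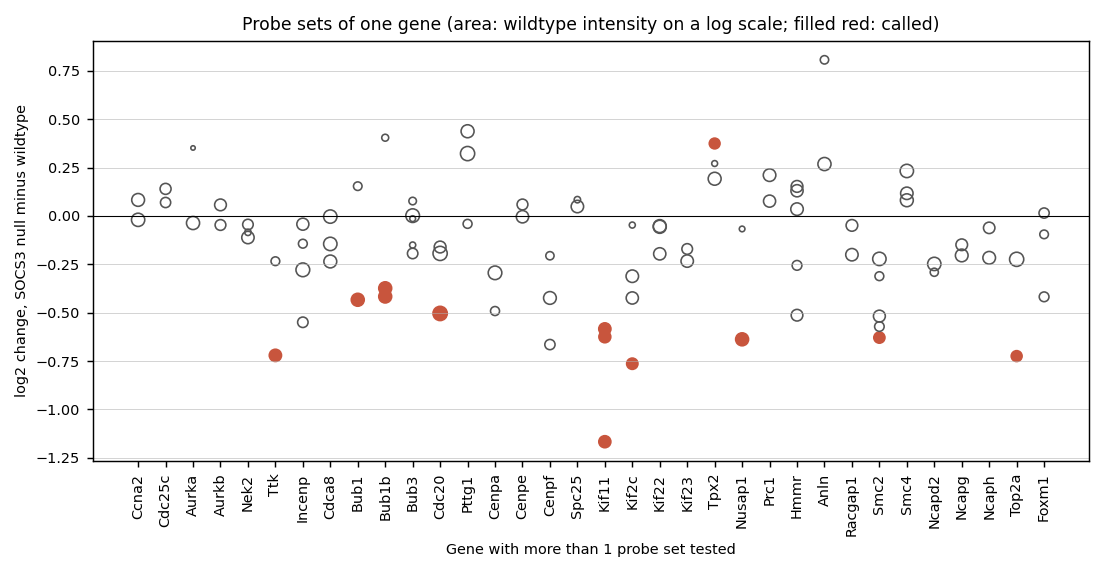
log2 change of every tested probe set of the 34 genes with more than 1; the symbol area grows with wildtype intensity on a log scale, and filled red symbols were called over all probe sets. The 3 probe sets of Kif11 are all red, and the only red symbol above 0 belongs to Tpx2 at 0.37.

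The wider mitotic machinery was read from 7 further lists with 126 genes tested, of which 17 fell (13.5%) and 8 rose (6.35%), against 9.55% and 13.1% of all genes. Calls in either direction made up 19.8%, against 22.7% of all genes, and the median change was -0.16. In the list of other kinetochore genes 5 of 27 fell and 1 rose, so 22.2% were called, a share near the 22.7% of all genes. Cenpi, Cenpp, Cenpq and Cenpu, subunits of the constitutive centromere network, changed by -1.05, -0.79, -0.63 and -0.75, and Ska1, which tracks microtubule ends, by -0.55. Mad1l1, the partner that brings Mad2l1 to the kinetochore, rose from 44.1 ± 9.38 to 88.7 ± 12.1 (SD, n = 2; 0.80, limma adjusted p = 0.041). Of 9 further genes of chromosome structure Oip5, which helps load centromeric histone, fell by 1.26 on the log2 scale, from 424 ± 29.5 to 167 ± 2.31 (SD, n = 2), and Ncapg2 by 0.60.

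The APC/C list had 18 genes, of which 2 rose and 3 fell (27.8% called, against 22.7% of all genes). The share called was 12.5% of the cohesin list, 37.5% of the mitotic entry list and 13.0% of the centrosome list. The core subunits Cdc16 and Cdc23 rose by 0.48 and 0.43, whereas Fbxo5 and Usp44, both restraints on the APC/C, changed by -0.86 and -0.84, and its enzyme Ube2s by -0.56. Among 16 cohesin genes Esco2, the acetyltransferase that establishes cohesion, and Sgo1, its protector at the centromere, changed by -0.89 and -0.53, and 0 rose. Of 16 genes of mitotic entry, Wee1 (an inhibitory kinase of Cdk1), Bora (a cofactor of Plk1) and Ppp2r2d (a subunit of the phosphatase that opposes Cdk1) changed by -0.37, -0.62 and -0.95. Ccnf, a cyclin of ubiquitin ligases, and the kinases Nek6 and Nek7 rose by 0.61, 0.64 and 0.56. Of 23 centrosome and spindle pole genes Plk4, the kinase of centriole duplication, and Haus1 changed by -0.46 and -0.93, and Haus8 rose by 0.68. Haus1 and Haus8 are subunits of the same complex, augmin.

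Of 17 regulators of mitotic transcription only Nfya, a subunit of the CCAAT-binding factor NF-Y, was called (5.88%, against 22.7% of all genes). It rose from 208 ± 0.907 to 307 ± 30.0 (SD, n = 2), a change of 0.52 (limma adjusted p = 0.0388). The other NF-Y subunits, Nfyb and Nfyc, lay the other way (-0.43 and -0.22) and did not pass (limma adjusted p = 0.0649 and 0.322). Tfdp1 had the largest change of the list, -0.69, and did not pass (limma adjusted p = 0.0521). Mybl2 and Lin9, which belong to the complex that acts at the CHR, differed by -0.03 and -0.23 and did not pass. The uncalled genes named from this list were picked with their values known. For comparison, 5 of 23 genes of DNA replication and the start of the cycle fell and 0 rose (21.7% called, against 22.7% of all genes), with a median change of -0.31: Mcm2, Mcm4, Gins1, Prim1 and E2f1 changed by -0.49, -0.48, -0.86, -0.51 and -0.81. No difference between these and the mitotic genes was tested.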

How the data were processed

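Total RNA of mouse ES cells was measured on 4 expression arrays, 2 labelled wildtype and 2 SOCS3 null. The authors deposited 1 intensity value per probe set on a linear scale (45101 probe sets, all values above 0). How they were summarised and normalized is not given in the sources used. Array medians lay between 15.8 and 16.0, and no further normalization was applied.

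Genes were named through a platform annotation, in which 34945 probe sets had 1 symbol, 932 several and 9160 none; gene positions and promoters came from RefSeq tables (GRCm38.p6). After removal of 64 control probe sets and of those below the 40th percentile of the mean, the probe set with the highest mean of log2(intensity + 16) stood for its gene, which left 12732 genes. limma 3.58.1 in R 4.3.3 was fitted with genotype as the only term (lmFit, eBayes, two-sided, threshold 0.05 on the p-value after Benjamini-Hochberg adjustment), and the procedure was tested on simulated data. Intensities are mean ± SD. Fold changes of dim genes are understated by the pseudocount of 16. The number of arrays limits the precision.

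All 51 members were named by role, and of each further list every called gene up to 6. The members and lists were chosen with earlier results of these data known. Tried beside this were other pseudocounts (1 and 64), median centring, quantile normalization, the filter at the 60th percentile or absent, a trend or robust trend in eBayes, a replicate block, averaging the probe sets of a gene, and each array left out. Same-numbered arrays did not deviate together (correlation -0.12 across genes), so the numbers were not taken to pair the arrays. Figures were drawn with matplotlib 3.10.9.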

Additional observations from a re-analysis of the deposited data

How the results depend on the processing

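Over 15 alternatives, 34 of the 50 genes kept the sign of their change in each, including all 9 called genes, and 16 changed sign in at least 1. Outside the fits that left out an array, 4 to 10 mitotic genes were called, all lower. With dim probe sets kept in 1631 genes and 5 mitotic genes were called, and with the replicate block 1914 and 4 (Ttk, Spc24, Ect2 and Kif18a). Because the deviations of same-numbered arrays correlated at -0.12, a block with crossed numbers was added after the data were seen, and it called 2817 genes and 7 mitotic genes. With an array left out limma called 0 genes in each of the 4 fits, and so 0 mitotic genes, with 2928 to 4733 genes at an unadjusted p under 0.05; the median change of the mitotic genes ran from -0.18 to -0.10. That median was -0.16 with quantile normalization and -0.14 as the mean of probe sets; the cause was not tested.

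Signs turned only in genes that were not called. With quantile normalization Cdca8 changed by 0.018 and Foxm1 by -0.030. With median centring Cdca8, Espl1 and Cenpe changed by 0.0065, 0.00051 and 0.0057. As the mean of probe sets Ccna2, Aurka, Bub3, Cenpe, Hmmr and Foxm1 changed by 0.031, 0.16, -0.056, 0.028, -0.090 and -0.17. With an array left out the changes ran from -0.049 to 0.0088 for Ccna2, -0.14 to 0.42 for Cdc25c, -0.14 to 0.25 for Aurkb, -0.29 to 0.066 for Nek2, -0.059 to 0.052 for Cdca8, -0.064 to 0.067 for Bub3 and -0.13 to 0.78 for Pttg1. They ran from -0.18 to 0.18 for Cenpe, -0.099 to 0.20 for Spc25, -0.47 to 0.0064 for Kif23, -0.18 to 0.25 for Hmmr, -0.55 to 0.050 for Ncapd2, -0.14 to 0.25 for Mki67 and -0.11 to 0.14 for Foxm1. Outside the fits that left out an array, Spc24 was called in all 11 alternatives. Ttk, Mad2l1, Kif11 and Ect2 were called in 10, Ndc80 in 9, Nusap1 in 8, Bub1 in 7 and Bub1b in 5. Of the genes that were not called above, Kif18a was called in 3, Nuf2 in 2, and Cenpa, Kif2c and Top2a in 1 each.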

Other observations

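Some intensities were exactly equal on different arrays. At least 1 such pair occurred in 7 of the 50 mitotic genes (14%) and in 11.6% of all genes tested, and a pair within a genotype in 4 of 50 (8%) and in 5.43%. Cdc25b had 81.2 on 3 arrays, Espl1 659 on 3 arrays, and Kif20a and Kif22 had 1360 and 1578 on both SOCS3 null arrays. None of the 9 called mitotic genes held an exact pair, but some came close to it. Spc24 was at 633 ± 0.031 on the wildtype arrays and Bub1b at 1149 ± 0.10 on the SOCS3 null arrays. Mad2l1 was at 3444 ± 1.31 in wildtype and Nusap1 at 977 ± 1.76 in SOCS3 null cells (SD, n = 2 each). The replicates of the SOCS3 null group differed by up to 0.91 on the log2 scale (Pttg1), with a median absolute difference of 0.12 over the 50 genes, against 0.088 between the wildtype arrays.

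Probe sets whose names end in _x_at or _s_at can match other transcripts. The first kind represents Cdc25c, Aurkb, Incenp, Cdc20, Kif2c and Ncaph, none of them called, and the second Nek2, Cdca8, Bub1b, Bub3, Pttg1 and Kif22, of which Bub1b was called. Another bright probe set of Bub1b, without either ending, was also called lower (-0.42).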
